A study of Mus musculus with 6 samples.

Results

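The genes of blood coagulation and fibrinolysis were followed in mouse liver RNA as a list of 36 members, taken by symbol from a table of 19613 gene rows, each symbol matching a single row. By role the list held 17 procoagulant genes, 8 anticoagulant genes, 7 genes of fibrinolysis, and 4 genes for vitamin K use and for secretion. The libraries came from livers of knockout (KO) mice and of wild-type (WT) mice, 3 libraries of each. Both groups had been injected intraperitoneally with 15 mg/kg lipopolysaccharide (LPS), a bacterial endotoxin, and livers were taken after 6 h. No liver without LPS was analysed here, so the values compare genotypes under endotoxin and not the response to it. The labels give neither the strain, sex or age of the mice nor whether each library is a separate animal, and p-values therefore measure the spread between these libraries only.

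Coagulation is a chain of proteases, most of them made by hepatocytes and released into plasma as inactive precursors. The contact factors or tissue factor start the chain, thrombin ends it by cutting fibrinogen into fibrin, and plasmin later dissolves the fibrin. Several of the precursors bind membranes only after a vitamin K-dependent carboxylase in the endoplasmic reticulum has modified them. In endotoxemia the liver raises fibrinogen as part of the acute-phase response while coagulation factors are consumed in the circulation.

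Of the 36 genes, 31 were high enough to test, and none of these passed the test between KO and WT. The coagulation factor XI gene F11 stood farthest apart, lower in every KO library than in every WT library. Heparin cofactor II (Serpind1), factor VII (F7) and the vitamin K-dependent carboxylase (Ggcx) had the next lowest p-values, also with lower means in KO. The fibrinogen chains Fga, Fgb and Fgg were the most abundant members and overlapped between the genotypes.

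Levels are FPKM, a fragment count corrected for gene length and for a total per library. They are divided by a factor per library, the median ratio of that library to the geometric mean of all libraries over the genes tested. Differences are log2 fold changes of KO over WT on log2(scaled FPKM + 1), which understates changes of low genes. A gene was tested where at least 3 libraries reached 1 FPKM as deposited, and called at a Benjamini-Hochberg adjusted p under 0.05 over the 9218 rows tested with limma. Of these rows 99 were called (1.07%; 0.477% higher and 0.597% lower), and 31 of the 36 members were tested. The count of members called was 0, with 4 at an unadjusted p under 0.05 (12.9% of the 31, against 14.1% of all rows tested). limma-voom on read counts recovered from the FPKM steps called 0 members as well (1.11% of all rows), with 4 at an unadjusted p under 0.05 (14.8% of all rows). Reads recovered in genes numbered 34804405 to 44682682 per KO library and 26303180 to 34548178 per WT library.

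The library scale matters for every value here. As deposited, the KO libraries lay higher over the table, with a median log2 fold change of 0.45 over the rows tested, and 2703 rows were called (29.3%). On that scale 6 of the 31 tested members were called, all higher in KO, against 28.7% of all rows called higher, and 0 were called lower (0.597% of all rows). They were Fga, Serpina10, Procr, Plg, Cpb2 and Mcfd2, with log2 fold changes between 0.60 and 0.76. Once scaled, the log2 fold changes of these 6 ran from 0.03 (Plg) to 0.21 (Procr). The library totals implied by the FPKM values were 35400140, 29039160 and 34309950 in KO replicates 1 to 3. In WT replicates 1 to 3 they were 37973280, 45428820 and 26864710. These totals did not follow the reads recovered in genes, which were highest in KO replicate 3 at 44682682. The part of the totals in the shift was not tested. After scaling the median over all rows tested was -0.005, and all values below are scaled unless said otherwise.

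By level the fibrinogen chains came first, followed by Kng1, Cpb2 and Serpinf2, and the plasminogen activator genes Plat and Plau and the factor XIII gene F13a1 came last, with means over all libraries of 0.113, 0.102 and 0.0566 FPKM. Of the tested members, 20 of 31 (64.5%) had a log2 fold change below 0, against 50.9% of all rows tested. Their median was -0.10, beside a median over all rows of -0.005. Both values moved with the scale: 16 of 31 lay below 0 with quantile normalization (median -0.01) and 15 with equal sums (median 0.003), and 16 did with arrayWeights, which weights libraries by quality (median -0.01). The 95% interval of the log2 fold change lay within -1 and 1 for 29 of the 31, all but F11 and Serpind1.

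**Figure D1:**
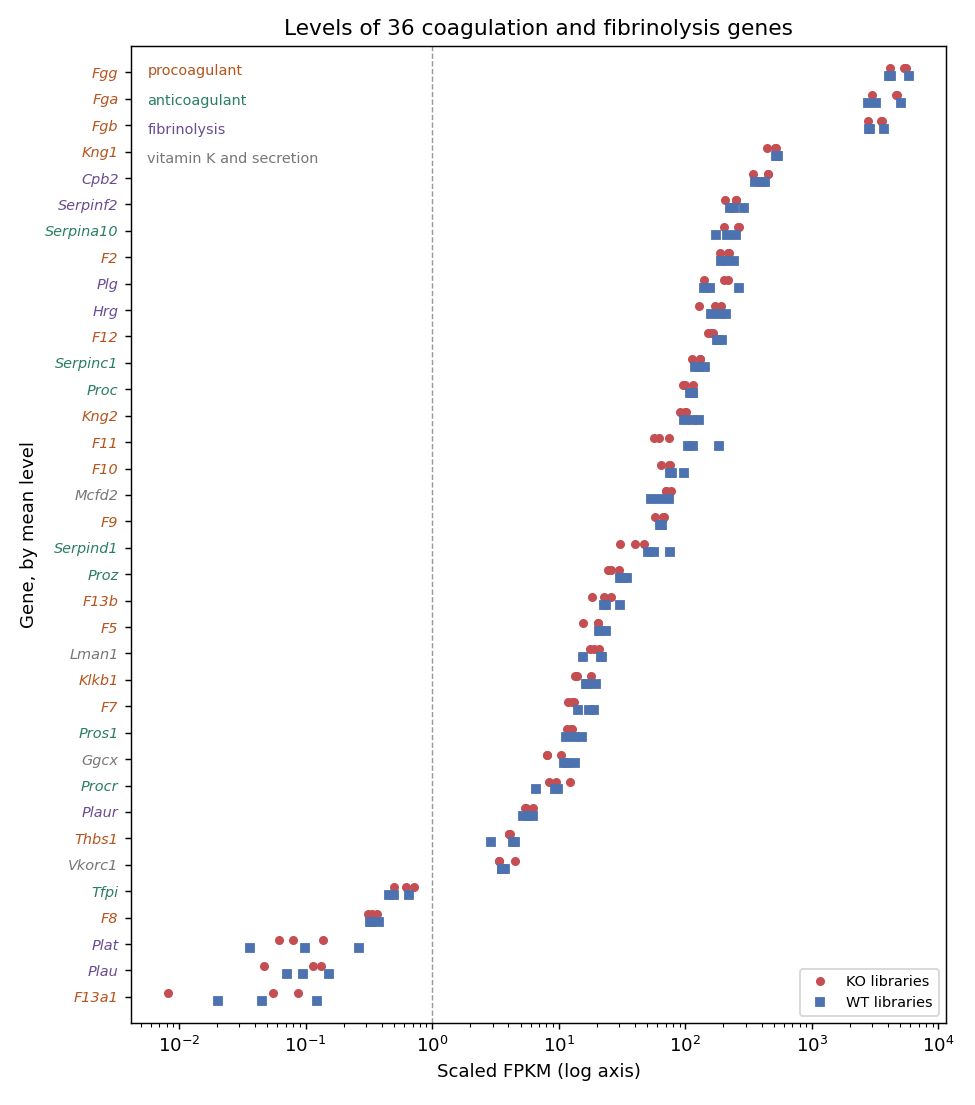
Level of each of the 36 genes in each library, as scaled FPKM on a log axis, with KO libraries as circles above WT libraries as squares and gene names coloured by role. The dashed line marks 1 FPKM, and the 5 genes that were not tested lie below it.

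Fibrinogen is the soluble precursor of fibrin, and its 3 chains are coded by neighbouring genes on chromosome 3. The α chain gene Fga stood at 4636.2, 3002.8 and 4672.2 FPKM in KO replicates 1 to 3, against 5032.8, 2780.1 and 3188.4 FPKM in WT replicates 1 to 3. The β chain gene Fgb stood at 3573.9, 2757.9 and 3515.3 FPKM in KO, against 3727.0, 2819.3 and 2883.8 FPKM in WT. The γ chain gene Fgg stood at 5548.2, 4110.0 and 5369.4 FPKM in KO, against 5826.9, 4100.1 and 4248.3 FPKM in WT. For all 3 chains the groups overlapped, replicate 2 was the lowest library of each genotype and WT replicate 1 was the highest library of all. The log2 fold changes were 0.18 for Fga (SE 0.269, limma adjusted p = 0.827), 0.06 for Fgb (SE 0.183, 0.919) and 0.09 for Fgg (SE 0.202, 0.896). Their 95% intervals ran from -0.44 to 0.80, from -0.36 to 0.48 and from -0.37 to 0.55. Fgb was just below 0 with quantile normalization (-0.03) and without WT replicate 2 (-0.01), and Fgg was without WT replicate 2 (-0.003), while Fga was above 0 in every alternative run.

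The ratio of the chains within a library needs no scaling between libraries. The Fga to Fgb ratio was 1.30, 1.09 and 1.33 in KO replicates 1 to 3, against 1.35, 0.986 and 1.11 in WT replicates 1 to 3. The Fgg to Fgb ratio was tighter, at 1.55, 1.49 and 1.53 in KO, against 1.56, 1.45 and 1.47 in WT. Neither differed beyond the spread of the libraries, with exact two-sided permutation p = 0.7 and p = 0.5 over 20 assignments, nor did Fga to Fgg (exact permutation p = 0.6). All 3 adjusted values were 0.7, and 3 libraries against 3 cannot go below an exact p of 0.1. Together the 3 chains made up 81.5%, 79.5% and 81.7% of the summed FPKM of the 36 genes in KO, against 81.3%, 76.8% and 77.3% in WT.

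The 250 bases before the start of each chain gene are shown because the chains varied together from library to library, along with those of F11, the member farthest apart between genotypes. Varying together was not particular to the chains, as KO replicate 2 was the lowest KO library for 25 of the 31 tested members. The sequences are from RefSeq (GRCm38.p6) at chr3:83025903-83026152 (plus strand, Fga), chr3:83049864-83050113 (minus strand, Fgb), chr3:83007474-83007723 (plus strand, Fgg) and chr8:45262032-45262281 (minus strand, F11), each printed 5′ to 3′ on the gene's own strand. Capitals mark matches on either strand to CTGGGA, the core of the interleukin-6 response element known from fibrinogen genes, to GTTAAT, a core of sites for the hepatocyte factor HNF1, and to CAAAGT, a core of sites for HNF4.
Fga: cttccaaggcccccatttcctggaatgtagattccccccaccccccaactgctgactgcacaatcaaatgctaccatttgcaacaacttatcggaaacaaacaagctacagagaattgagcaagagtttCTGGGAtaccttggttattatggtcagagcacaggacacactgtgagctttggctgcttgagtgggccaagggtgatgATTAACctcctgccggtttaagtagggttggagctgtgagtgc
Fgb: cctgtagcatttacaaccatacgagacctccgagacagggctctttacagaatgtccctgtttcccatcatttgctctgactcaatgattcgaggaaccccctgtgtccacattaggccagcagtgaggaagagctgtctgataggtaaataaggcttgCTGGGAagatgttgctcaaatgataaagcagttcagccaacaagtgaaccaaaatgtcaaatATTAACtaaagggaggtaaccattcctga
Fgg: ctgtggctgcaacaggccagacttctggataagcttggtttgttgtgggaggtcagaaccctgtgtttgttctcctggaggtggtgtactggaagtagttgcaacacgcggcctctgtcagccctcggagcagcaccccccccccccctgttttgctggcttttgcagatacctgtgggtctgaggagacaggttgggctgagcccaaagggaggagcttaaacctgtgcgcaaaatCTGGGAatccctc
F11: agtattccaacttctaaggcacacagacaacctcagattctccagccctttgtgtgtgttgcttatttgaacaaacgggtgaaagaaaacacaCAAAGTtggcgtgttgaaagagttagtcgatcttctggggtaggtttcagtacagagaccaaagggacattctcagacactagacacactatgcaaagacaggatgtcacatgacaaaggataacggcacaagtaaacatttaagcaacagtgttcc
CTGGGA began 121 bases before the start in Fga, 91 bases before it in Fgb and 13 bases before it in Fgg, and had no match in the F11 window. GTTAAT matched on the opposite strand in Fga and Fgb, 43 and 29 bases before the start, and CAAAGT matched in F11, 157 bases before it. No marked motifs overlapped. Windows were at hand for 28 of the 36 members. CTGGGA was in the windows of 11 of these (39.3%), against 29.8% of 27025 genes. GTTAAT was in 4 (14.3%, against 7.49%) and CAAAGT in 9 (32.1%, against 14.1%). The matches describe the letters in these windows and were not tested for binding.

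The contact system starts coagulation on charged surfaces through factor XII, plasma kallikrein, kininogen and factor XI. F11 stood at 62.5, 73.8 and 56.1 FPKM in KO replicates 1 to 3, against 105, 185 and 116 FPKM in WT replicates 1 to 3. Every KO library lay below every WT library, and WT replicate 2 was well above the other WT libraries. Its mean was 64.1 ± 8.94 FPKM over KO libraries and 135 ± 43.4 FPKM over WT libraries (SD, n = 3 each), with 5052 to 6149 reads per KO library and 6879 to 13623 per WT library. The log2 fold change was -1.03 (SE 0.221, 95% interval -1.53 to -0.52) with a limma adjusted p = 0.0828, and 163 rows of the table had a lower p. F11 lay below 0 in all 20 alternative fits on scaled values, from -1.20 to -0.78, the smallest of these without WT replicate 2. The fits reuse the same libraries, and those that change only the filter or the variance model keep the same estimate. F11 was called in 3 of the 20, and with single libraries left out its adjusted p ran from 0.0563 to 0.269. As deposited F11 stood at 63.7, 94.5 and 78.6 FPKM in KO, against 80.9, 134 and 115 FPKM in WT, where KO replicate 2 overlapped WT replicate 1 (log2 fold change -0.46, limma adjusted p = 0.0979).

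F11 lies beside Klkb1, the gene of plasma prekallikrein and its closest relative among these genes, on chromosome 8. Klkb1 stood at 17.9, 13.6 and 14.0 FPKM in KO replicates 1 to 3, against 16.6, 19.8 and 16.6 FPKM in WT replicates 1 to 3, and the groups overlapped (log2 fold change -0.21, SE 0.141, limma adjusted p = 0.556). Within a library F11 was 3.48, 5.44 and 4.0 times as high as Klkb1 in KO, against 6.29, 9.35 and 7.01 times in WT, again without overlap. This ratio was chosen after the values were seen and was not tested.

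Factor XII (F12), which autoactivates on surfaces, stood at 167, 150 and 159 FPKM in KO, against 178, 180 and 196 FPKM in WT. The groups did not overlap, but the difference was small (log2 fold change -0.22, SE 0.123, limma adjusted p = 0.480). Kininogen 1 (Kng1), the cofactor that carries prekallikrein and factor XI, stood at 524, 445 and 514 FPKM in KO, against 519, 529 and 540 FPKM in WT. Its paralog Kng2 stood at 101, 91.1 and 98.6 FPKM in KO, against 97.5, 128 and 114 FPKM in WT. Both overlapped between the groups, with log2 fold changes of -0.10 (SE 0.134, limma adjusted p = 0.792) and -0.22 (SE 0.140, 0.547). The kininogen genes are close paralogs, and the treatment of reads matching both is not known here. All 5 contact genes had a log2 fold change below 0 on scaled values, with a median of -0.22, and Kng1 lay above 0 with quantile normalization.

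Of the other procoagulant factors, F7 had the lowest p. Factor VII forms the initiating complex with tissue factor. F7 stood at 12.7, 11.9 and 13.3 FPKM in KO replicates 1 to 3, against 19.0, 14.2 and 17.2 FPKM in WT replicates 1 to 3. The groups did not overlap, and WT replicate 2 came closest to the KO libraries (log2 fold change -0.38, SE 0.131, limma adjusted p = 0.256). Its neighbour F10, coding for factor X, stood at 74.2, 64.0 and 76.0 FPKM in KO, against 97.2, 77.9 and 76.2 FPKM in WT, with the highest KO library and the lowest WT library nearly level. F5, the cofactor of factor X in making thrombin, stood at 20.5, 15.4 and 20.5 FPKM in KO, against 23.6, 20.9 and 21.1 FPKM in WT. F10 and F5 were separate between the groups only by these narrow margins, with log2 fold changes of -0.22 and -0.21 (limma adjusted p = 0.546 and 0.550).

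The remaining tested procoagulant genes overlapped between the groups. Prothrombin (F2), the precursor of thrombin, ranged from 189 to 220 FPKM in KO and from 190 to 241 FPKM in WT (log2 fold change -0.01, 95% interval -0.35 to 0.32). Factor IX (F9), the target of factor XIa, had means of 64.1 ± 5.53 FPKM over KO libraries and 64.1 ± 1.51 FPKM over WT libraries (SD, n = 3 each; interval of the log2 fold change -0.28 to 0.27). F13b, the carrier subunit of the fibrin-crosslinking factor XIII, ranged from 18.5 to 26.0 FPKM in KO and from 22.9 to 30.4 FPKM in WT (log2 fold change -0.19, limma adjusted p = 0.669). Thbs1, a matrix and platelet glycoprotein, ranged from 4.03 to 4.13 FPKM in KO and from 2.92 to 4.55 FPKM in WT (0.06, limma adjusted p = 0.908).

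**Figure D2:**
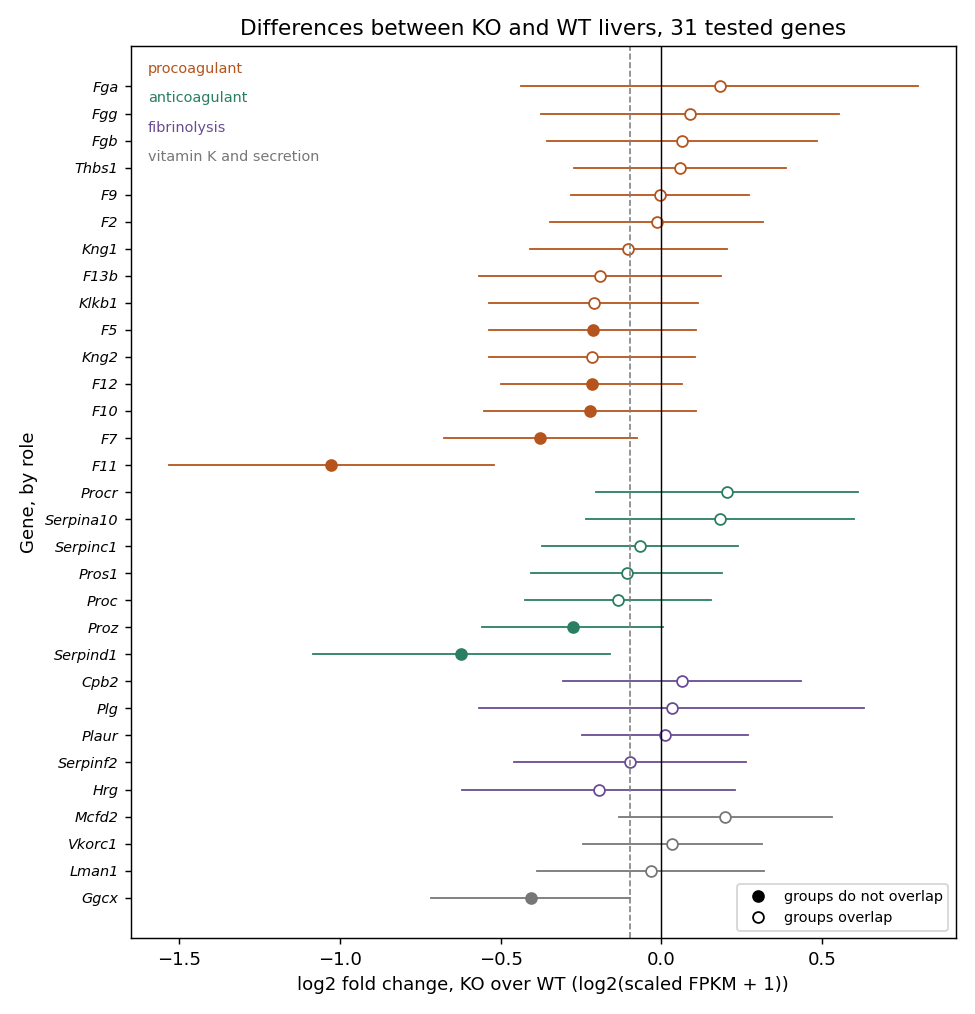
Log2 fold change of KO over WT for the 31 tested genes, by role, with 95% intervals from limma. Filled points are the 8 genes whose KO and WT libraries do not overlap, all below 0, the dashed line is the median of the 31 genes at -0.10, and F11 lies farthest from 0 at -1.03.

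Among the anticoagulant genes, Serpind1 stood farthest apart. It codes for heparin cofactor II, a thrombin inhibitor activated by glycosaminoglycans. Serpind1 stood at 47.5, 30.7 and 40.0 FPKM in KO replicates 1 to 3, against 75.9, 51.1 and 56.4 FPKM in WT replicates 1 to 3. The groups did not overlap, and the lowest WT library lay just above the highest KO library (log2 fold change -0.62, SE 0.201, limma adjusted p = 0.220). It lay below 0 in all 20 alternative fits on scaled values, which reuse the same libraries, from -0.76 to -0.46. As deposited its log2 fold change was -0.06.

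Protein Z (Proz), the cofactor with which the serpin of Serpina10 blocks factor Xa, stood at 29.7, 24.4 and 26.0 FPKM in KO, against 32.4, 34.6 and 30.5 FPKM in WT, without overlap (log2 fold change -0.28, SE 0.123, limma adjusted p = 0.365). Serpina10 itself stood at 263, 201 and 266 FPKM in KO, against 254, 176 and 214 FPKM in WT, and overlapped (log2 fold change 0.18, SE 0.182, limma adjusted p = 0.721). The pair therefore had fold changes of opposite sign, neither of which passed. Antithrombin (Serpinc1), the main plasma inhibitor of thrombin and factor Xa, stood at 130, 112 and 130 FPKM in KO, against 142, 128 and 119 FPKM in WT (log2 fold change -0.07, 95% interval -0.37 to 0.24).

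Procr, the endothelial receptor that presents protein C for activation, stood at 9.45, 8.40 and 12.2 FPKM in KO, against 6.59, 9.30 and 9.80 FPKM in WT (log2 fold change 0.21, SE 0.178, limma adjusted p = 0.669). KO replicate 3 was the highest library and WT replicate 1 the lowest, and the others overlapped. Protein C (Proc) ranged from 95.3 to 114 FPKM in KO and from 108 to 115 FPKM in WT (-0.14, limma adjusted p = 0.697). Its cofactor protein S (Pros1) ranged from 11.7 to 12.8 FPKM in KO and from 11.4 to 15.3 FPKM in WT (-0.11, limma adjusted p = 0.774).

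**Figure D3:**
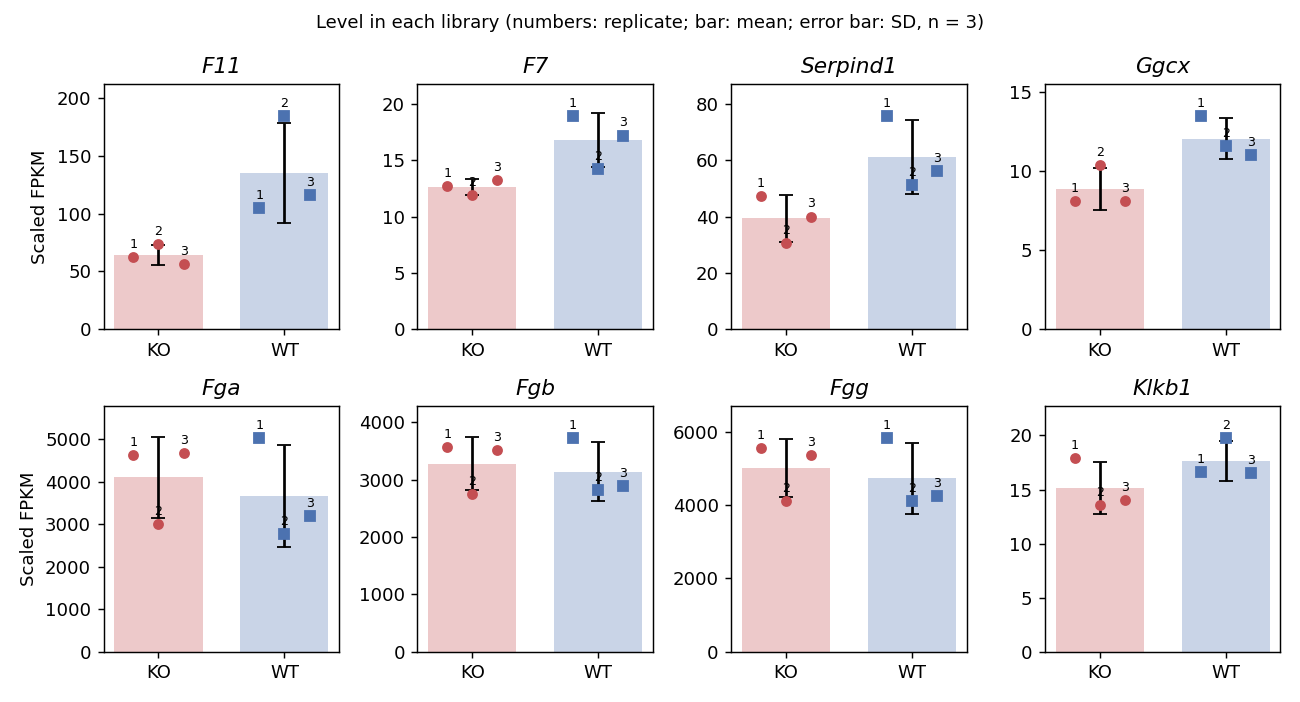
Scaled FPKM of 8 genes in each library, KO left of WT, with bars for the mean, error bars for the SD (n = 3) and numbers for the replicate. KO and WT libraries are separate for F11, F7, Serpind1 and Ggcx and overlap for the fibrinogen chains and Klkb1.

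The genes of fibrinolysis showed no separation between the genotypes. Cpb2, whose product trims fibrin and so slows its breakdown by plasmin, stood at 452, 343 and 447 FPKM in KO replicates 1 to 3, against 428, 352 and 402 FPKM in WT replicates 1 to 3. Serpinf2, coding for the plasmin inhibitor α2-antiplasmin, stood at 252, 205 and 249 FPKM in KO, against 293, 224 and 241 FPKM in WT. Hrg, a heparin- and plasminogen-binding plasma protein gene next to the kininogens on chromosome 16, stood at 190, 127 and 172 FPKM in KO, against 210, 159 and 188 FPKM in WT. All 3 overlapped, with log2 fold changes of 0.06 (SE 0.161), -0.10 (SE 0.157) and -0.20 (SE 0.185) and limma adjusted p of 0.908, 0.844 and 0.703. Cpb2 lay just below 0 without KO replicate 1 or WT replicate 2, and Serpinf2 just above 0 with quantile normalization, equal sums, arrayWeights or without WT replicate 1.

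Plasminogen (Plg), the precursor of plasmin, had means of 187 ± 40.2 FPKM over KO libraries and 187 ± 66.9 FPKM over WT libraries (SD, n = 3 each). KO libraries stood at 216, 141 and 203 FPKM, against 263, 140 and 156 FPKM in WT, and the interval of its log2 fold change was wide (-0.57 to 0.63). The urokinase receptor gene Plaur ranged from 5.39 to 6.31 FPKM in KO and from 5.18 to 6.21 FPKM in WT (0.01, limma adjusted p = 0.975).

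Of the genes for vitamin K use and secretion, Ggcx was lower in every KO library than in every WT library. It codes for the carboxylase that modifies factors II, VII, IX and X and proteins C, S and Z. Ggcx stood at 8.10, 10.4 and 8.09 FPKM in KO replicates 1 to 3, against 13.5, 11.6 and 11 FPKM in WT replicates 1 to 3 (log2 fold change -0.41, SE 0.135, limma adjusted p = 0.232). Vkorc1, which recycles the vitamin, stood at 4.52, 3.39 and 3.39 FPKM in KO, against 3.77, 3.58 and 3.54 FPKM in WT, and overlapped (0.03, SE 0.121, limma adjusted p = 0.938).

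The secretion receptor of factors V and VIII is built from the products of Lman1 and Mcfd2. Mcfd2 stood at 70.7, 70.9 and 76.8 FPKM in KO, against 74.0, 53.7 and 63.6 FPKM in WT (log2 fold change 0.20, SE 0.145, limma adjusted p = 0.593). Lman1 stood at 21.0, 19.0 and 17.5 FPKM in KO, against 22.1, 21.6 and 15.7 FPKM in WT (-0.03, SE 0.154, limma adjusted p = 0.952). Both overlapped between the groups.

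The 7 members whose proteins Ggcx carboxylates were grouped from textbook knowledge after their values were seen. All 7 genes had a log2 fold change below 0, from -0.38 (F7) to -0.004 (F9), with a median of -0.14. Of all rows tested, 50.9% lay below 0. With quantile normalization or a scaling to equal sums, 5 of the 7 lay below 0, F2 and F9 lying above it. With arrayWeights or without KO replicate 2, 5 of the 7 did. With factors over all rows above 0, limma-voom without a filter, or without WT replicate 1 or 3, 6 did. None of the 7 passed.

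In all, 8 of the 31 tested members (25.8%) were lower in every KO library than in every WT library, against 9.88% of all rows tested, and 0 were higher, against 10.3%. They were F11, Serpind1, Ggcx, F7, Proz, F12, F10 and F5. The count rests on the scale: it stayed at 8 with upper-quartile scaling, was 5 with quantile normalization, when 2 others were higher, and 1, F11, with equal sums (9.12% and 5.45% of all rows lower). With factors over all rows above 0, added after the data were seen, it was 5 again (9.06%). F11 alone was separate under each of these scalings. On the main scale such genes were not particular to the members. Of the 41 further pathway genes tested, 9 were lower in every KO library and 4 were higher. Of the 8 hepatocyte markers checked below, 2 were lower, Ttr and Serpina1c, and 0 were higher.

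The members also varied together among libraries of the same genotype. KO replicate 2 was the lowest KO library for 25 of the 31 tested members (80.6%), against 39% of all rows tested. WT replicate 1 was the highest WT library for 19 (61.3%), against 38% of all rows. Neither was particular to the members. Among the hepatocyte markers checked below, KO replicate 2 was the lowest KO library for all but Ttr. For all of those markers but Ttr and Serpina1c, WT replicate 1 was the highest WT library. The order replicate 1, then 3, then 2 held in KO for 16 members (51.6%, against 21.9% of all rows) and in WT for 13 (41.9%, against 19.5%). F11 did not follow it: its highest library was replicate 2 in each genotype.

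**Figure D4:**
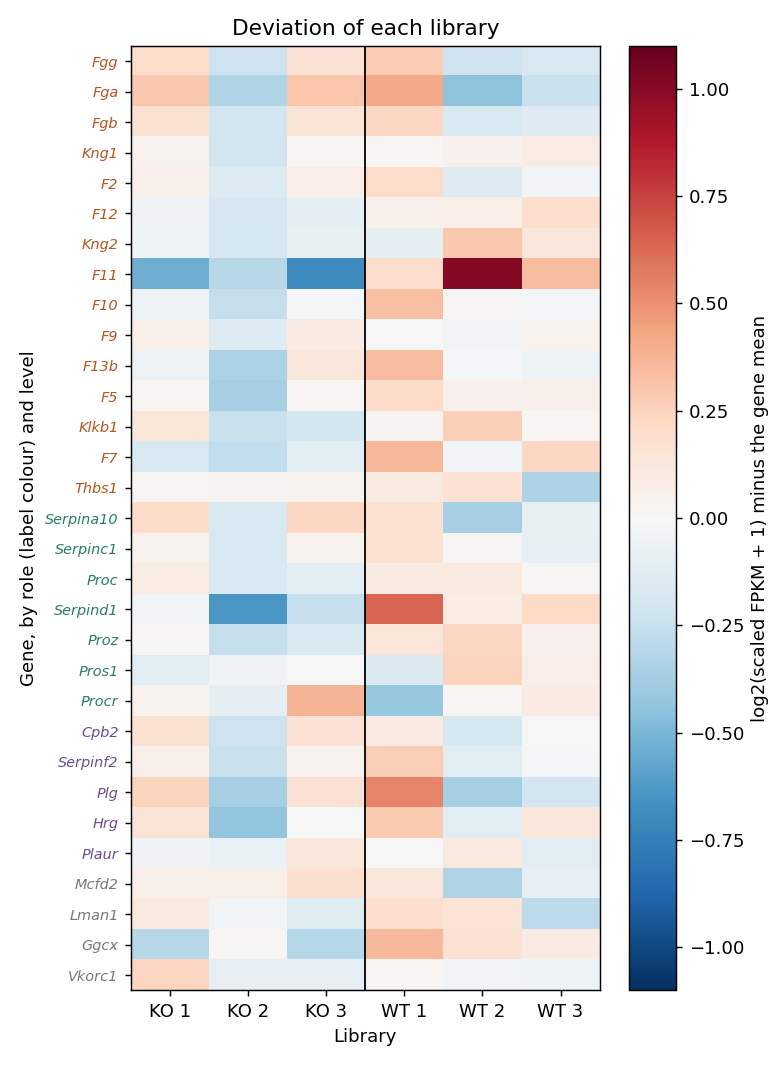
Deviation of each library from the gene's mean over the 6 libraries, on log2(scaled FPKM + 1), for the 31 tested genes by role and level. Most genes are low in KO replicate 2 and high in WT replicate 1, and F11 is low in all KO libraries and high in all WT libraries.

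Low levels kept 5 members out of the test. Factor VIII (F8), made by endothelial cells of the liver, ranged from 0.311 to 0.367 FPKM in KO and from 0.323 to 0.377 FPKM in WT, with 87 to 148 reads per library. Tfpi, the endothelial inhibitor of tissue factor, ranged from 0.502 to 0.713 FPKM in KO and from 0.455 to 0.656 FPKM in WT. The plasminogen activators were rarer still: Plat had 14, 32 and 24 reads in KO, against 18, 54 and 6 in WT, and Plau had 4, 10 and 15 in KO, against 5, 12 and 6 in WT. F13a1, the catalytic subunit of factor XIII made mainly by cells of the blood lineages, had 2, 22 and 18 reads in KO, against 4, 10 and 22 in WT. All 5 overlapped between the groups, and in limma-voom without the filter, added after the data were seen, their adjusted p ran from 0.844 (Tfpi) to 0.976 (F8). With so few reads, moderate differences in Plat, Plau and F13a1 were not detectable at this depth.

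Among 53 further genes of the pathway, 41 were tested and 0 were called with limma or limma-voom (against 1.07% and 1.11% of all rows), with 9 at an unadjusted p under 0.05 in each, against 14.1% and 14.8% of all rows. Their median log2 fold change was 0.03, with 22 above 0 and 19 below. Among initiation cofactors and inhibitors, Tfpi2, a relative of Tfpi, had a log2 fold change of -0.28, Gas6, a vitamin K-dependent ligand, of -0.16 and Anxa5, which covers exposed phospholipid, of -0.19. The 6 inhibitors tested had a median of -0.12, with 1 above 0. In fibrinolysis the plasminogen receptor gene Plgrkt was at -1.09 and Anxa2, which binds plasminogen and its activator, at -0.39, and the 5 tested had a median of -0.32. Plgrkt stood at 5.81, 11.2 and 4.85 FPKM in KO, against 10.2, 21.4 and 17.4 FPKM in WT, and overlapped (limma adjusted p = 0.176).

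Of receptors, Stab2, a scavenger receptor of sinusoidal endothelium, was at -0.67 on the log2 scale (limma adjusted p = 0.0888) and Asgr1, which clears desialylated plasma glycoproteins and platelets, at -0.26. Of the 16 genes of vitamin K chemistry and export, 13 lay above 0. Pdia3, a folding enzyme, was at 0.52 (limma adjusted p = 0.145) and Sec24d, a coat subunit of export vesicles, at 0.33. Nqo1, named for its distance from 0, went the other way at -0.61 (limma adjusted p = 0.310). The fibrinogen-like genes Fgl1 and Fgl2 had -0.16 and 0.02. Of hepatocyte transcription factors, Foxa2 had 0.70 (limma adjusted p = 0.128) and Cebpb, which drives acute-phase genes, -0.28. Tissue factor (F3), named after its values were seen, stayed below 1 FPKM in every library.

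The tissue label was checked against cell type markers. All 8 hepatocyte markers were present, with summed levels from 19362.6 to 23066.8 FPKM in KO and from 21595.4 to 28168.7 FPKM in WT. All 8 had a log2 fold change below 0, from -0.40 to -0.08, with a median of -0.25. Ttr and Serpina1c did not overlap between the groups. The 31 tested members had a median of -0.10, with 11 above 0. Of the sinusoidal endothelial list, 8 of 8 were above 0 in each group, and sums ran from 21.3 to 29.0 FPKM in KO and from 22.2 to 34.9 FPKM in WT. The 5 tested all had a log2 fold change below 0, with a median of -0.22, and among them Stab2 did not overlap. Gpr182, too low to test, had a higher mean in KO (1.04 against 0.713 FPKM in WT) and overlapped. Of the platelet list, 7 of 7 present were above 0, with sums from 6.81 to 11.3 FPKM in KO and from 6.60 to 10.2 FPKM in WT. Of the 3 tested, Pf4 was lower in every KO library (-0.38, limma adjusted p = 0.215). Itga2b (-0.20) and Ppbp (0.33) overlapped. For Kupffer cells, 8 of 8 were above 0, with sums from 41.8 to 64.7 FPKM in KO and from 44.7 to 70.5 FPKM in WT. Of the 7 Kupffer cell markers tested, 5 had a log2 fold change below 0 and 3 an unadjusted p under 0.05, namely Timd4 (-0.59, limma adjusted p = 0.0578), Cd5l (-0.55, 0.208) and Vsig4 (-0.55, 0.199), and Timd4 and Cd5l did not overlap between the groups. Neutrophil sums were 120 to 133 FPKM in KO and 115 to 174 FPKM in WT, monocyte sums 35.5 to 42.9 FPKM in KO and 43.9 to 54.0 FPKM in WT, and stellate cell sums 30.6 to 33.7 FPKM in KO and 31.4 to 43.0 FPKM in WT. The monocyte sums were narrowly lower in every KO library, while each of the 4 monocyte markers tested overlapped between the groups. The stellate cell sums were mostly Dcn and Rgs5, and Lrat, which makes the retinyl esters that these cells store, did not pass the filter and ran from 0.253 to 0.347 FPKM over KO libraries, against 0.980 to 1.99 FPKM over WT libraries. Without the filter its adjusted p was 0.00866 in limma-voom, with a log2 fold change of -2.23, and 0.141 in limma, and it was the one marker of all lists past 0.05 in either. Hand2, also too low to test, was lower in every KO library than in every WT library. Col1a1, likewise too low to test, had a higher mean in KO (1.02 against 0.613 FPKM in WT) and overlapped. Dcn, Rgs5, Reln, Des and Colec11 overlapped between the groups as well. Cholangiocyte sums were 44.0 to 79.9 FPKM in KO and 47.5 to 67.4 FPKM in WT. Erythroid sums were 206 to 321 FPKM in KO and 134 to 319.6 FPKM in WT, and lymphocyte sums 1.31 to 1.67 FPKM in KO and 0.588 to 1.54 FPKM in WT. Ly6g, Cd3e and Klrb1c were at 0 in at least 1 library. In bulk liver, fewer cells of a type and less RNA per cell cannot be told apart, and the part of these shifts in the values above was not tested.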

How the data were processed

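RNA from 6 liver libraries, 3 KO and 3 WT, was sequenced. Extraction used Trizol, followed by standard Illumina library preparation, per the labels' protocols. The words 10x Genomics also stand in the descriptions, but the table has 1 column per library and none per cell. The authors deposited FPKM values, 1 column per library, with no scaling between libraries recorded. HISAT2 2.0.5, an aligner, appears in the submitters' processing notes, as do the builds mm39 and hg38, with no role stated for either. How fragments were counted, on which strand and with which annotation, is not stated. The targeted gene is not reported here.

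Columns were matched by library name. FPKM was divided by median-of-ratios factors over the 9218 rows with at least 1 FPKM in at least 3 libraries, and limma 3.58.1 under R 4.3.3 was run on log2(value + 1), with genotype as the single term and an intensity trend in eBayes (two-sided, 4 residual degrees of freedom). The factors ran from 1.02 to 1.40 in KO and from 0.724 to 0.988 in WT. Whole reads were recovered as the smallest whole numbers that give a gene's values in all libraries, to within 0.0001 reads. Such numbers were found for 100% of rows, including 412 rows at 0 in every library. GENCODE M21 exonic lengths fixed common factors in 17126 of the 19613 rows. In the other rows the smallest numbers were kept, which may understate the reads. The reads summed to 26303180 to 44682682 per library, so counting error weighs only on the lowest genes. Fibrinogen ratios were compared by exact permutation. Gene neighbours and promoter windows are those of RefSeq (GRCm38.p6), a different build from mm39.

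The members and lists were chosen with earlier results of these data known. Values per library are given for the 3 members of lowest p and the 2 of highest level in each role, the fibrinogen and kininogen genes, and members whose groups do not overlap; of each further pathway list the 2 genes of lowest p are named. Alternatives covered pseudocounts, filters, scalings, variance models, limma-voom, the replicate number as a block, and each library left out.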

Additional observations from a re-analysis of the deposited data

How the results depend on the processing

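No member was called under pseudocounts of 0.1 or 0.5, other filters, upper-quartile, quantile or equal-sum scaling, eBayes without trend or robust, limma-voom, or with any 1 library left out. On the deposited values 6 were called. With arrayWeights 1 was called, F11 (log2 fold change -1.20, limma adjusted p = 0.0191), and with an adjusted p under 0.1 again 1, F11. The samples share replicate numbers, and the labels do not say whether these pair the libraries. Same-numbered deviations correlated at 0.328, 0.473 and 0.0183, and KO replicate 3 correlated best with WT replicate 1. With 3 libraries per group these correlations cannot decide whether the numbers are pairs. With the replicate block 2 members were called, F11 (adjusted p = 0.0131) and Serpind1 (0.0350), and 298 rows in all. Of the alternatives added after the data were seen, limma-voom without a filter called 1 member, F11 (adjusted p = 0.0359), and 170 rows, and factors over all rows above 0 called 0 members.

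The count of 99 rows became 33 without a filter, 61 with a mean of at least 5 FPKM, 2703 as deposited, 354 with arrayWeights and 220 at an adjusted p under 0.1, and ran from 20 (without KO replicate 1) to 97 (without WT replicate 1) with 1 library left out. The median log2 fold change of the members was 0.474 as deposited, 0.00282 with equal sums, -0.0111 with quantile normalization and -0.0119 with arrayWeights, and ran from -0.125 to -0.00614 (without WT replicate 1) with 1 library left out. The fibrinogen ratios kept their direction, with log2 differences from 0.0138 to 0.241 (Fga/Fgb), 0.00524 to 0.0574 (Fgg/Fgb) and 0.00853 to 0.183 (Fga/Fgg) with 1 library left out. Of the 31 tested members, 14 stayed below 0 and 4 above 0 in all 20 alternative fits on scaled values, and the cause of the other sign changes was not tested. Depth limits F13a1, Plau and Plat.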
